A study of Mus with 6 samples.

Results

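The genes described here are 81 nuclear genes for proteins that build the mitochondrial ribosome, bring proteins into mitochondria, keep mitochondrial DNA, fold or degrade matrix proteins, or set the fusion and fission of the organelle. They were chosen by symbol from a deposited table of 11659 Ensembl genes: the Mrpl and Mrps genes of the large and small ribosomal subunits, the Tomm and Timm genes of the outer and inner membrane translocases with Pam16 and Dnajc19, translation factors, matrix proteases, the core genes of mitochondrial DNA transcription and replication, Opa1, Mfn1, Mfn2, Fis1, Mff and the Chchd genes. The rule uses gene symbols and the rows where labels and counts line up, and no difference between the groups. All 81 passed the filter on low counts. They comprised 29 genes of the large ribosomal subunit, 17 of the small subunit, 3 translation factors, 4 TOM genes, 11 TIM and motor genes, 3 proteases or their partners, 6 genes of mitochondrial DNA, 3 fusion genes, 2 fission genes and 3 Chchd genes.

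RNA was sequenced from knee cartilage chondrocytes of C57BL/6J mice in 2 groups, wild type (WT) and conditional Sirt6 knockout (Sirt6 cKO), with 3 samples each. The methods of the study give male animals aged 12 weeks and primary cells freed from dissected articular cartilage by enzymatic digestion, then cultured and used near confluence at their first passage. In the Sirt6 cKO mice, loxP sites flank both Sirt6 alleles (Sirt6 flox/flox) and a tamoxifen-inducible Cre recombinase, CreERT2, is driven by the promoter of the cartilage collagen gene Col2a1, so deletion is limited to cells that used this promoter when tamoxifen was given, and their descendants. The WT group is labelled wild type with no further allele, and whether it carried Cre or received tamoxifen is not stated for these libraries, nor is the tamoxifen schedule of the sequenced animals. The study's data statement gives as many control and Sirt6 KO mice as there are samples, which reads as 1 mouse per sample. No label ties a sample to an animal, however, and pooling is not mentioned, so p-values are taken to measure only the spread between these samples.

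Mitochondria keep a small genome of their own, and the few proteins it encodes are made by a dedicated ribosome whose RNA is mitochondrial but whose proteins are all encoded in the nucleus, translated in the cytosol and imported. Import runs through the TOM complex in the outer membrane and then through TIM23 for proteins with a presequence or through small TIM chaperones and TIM22 for carrier proteins. The network is shaped by fusion, for which the mitofusins Mfn1 and Mfn2 serve the outer and Opa1 the inner membrane, and by fission, in which Fis1 and Mff act on the outer surface.

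The counts summed to between 25726958 and 30156935 per sample. Sirt6 checked the labels: it had 10273, 9963 and 10943 raw counts in WT replicates 1 to 3 and 1056, 862 and 660 in the Sirt6 cKO samples, a log2 fold change of −3.69 ± 0.21 (SE, n = 3 per group, adjusted p = 8e-06 by edgeR). WT replicate 1 stood apart from the other WT libraries. Its log2 counts correlated across genes with those of WT replicates 2 and 3 at 0.968 and 0.970, against 0.992 between the latter 2 and at least 0.984 within the Sirt6 cKO group. The difference touched these genes more than most, because WT replicate 1 had the highest WT level for 68 of the 81, whereas this was so for 50.5% of all rows. The median of the 81 lay 0.40 higher in WT replicate 1 than in the mean of the other 2 on the log2 scale, against 0.08 over all rows. The main counts and medians are therefore also given without that sample. Values below are TMM-normalized counts, that is, counts scaled for sequencing depth and composition to the geometric mean of the 6 effective library sizes. Fold changes are Sirt6 cKO relative to WT on the log2 scale. Their standard error was derived as the absolute log2 fold change over the square root of the F statistic of the test. Adjusted p-values come from the quasi-likelihood test of edgeR, corrected by the Benjamini-Hochberg method over all 11246 tested rows. A gene was called at an adjusted p under 0.05, and is said to have risen or fallen where it was called.

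The genes were mostly lower in Sirt6 cKO chondrocytes. Of the 81, 41 were called in either direction, against 46.8% of all tested rows. Of these, 38 fell (46.9%), whereas 24.3% of all rows fell, 3 rose (Mff, Polg2 and Mrpl24) where 22.5% of all rows rose, and the other 40 did not pass the test. In bulk RNA of this kind, fewer cells of a type and less RNA per cell cannot be told apart. Past 2-fold, 11 genes fell (13.6%, against 7.15% of all rows), namely Timm50, Timm10, Timm23, Tomm6, Mrpl51, Mrpl12, Mrpl19, Mrpl20, Mrps25, Mrps33 and Mrps11. None rose past 2-fold, whereas 8.72% of all rows did. The median log2 fold change of the 81 was −0.43, against 0.002 over all tested rows, and 65 of the 81 had a negative value, against 49.9% of all rows. All 3 WT samples lay above all 3 Sirt6 cKO samples for 45 genes (30.6% of all rows) and below them for 5 (30.2% of all rows), that is, the groups did not overlap for 50 genes, against 60.9% of all rows.

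Without WT replicate 1, 39 of the 81 genes fell, 37 of them among the 38 above, against 27.8% of all rows, and 5 rose, against 27.5%. Mrpl58, a large subunit protein that releases stalled peptides, was lost (adjusted p = 0.0519 by edgeR), whereas Opa1 and Mrps17 joined the lower and Chchd5 and Tomm34 the higher genes. The changes were smaller in that fit: 7 genes fell past 2-fold (6.5% of all rows), 58 had a negative value (49.8% of all rows) and the median was −0.27. In 46 genes both remaining WT samples lay above all 3 Sirt6 cKO samples, against 36.9% of all rows. Leaving out a Sirt6 cKO sample reduced the number of calls among all rows as well. Then 25 genes fell without replicate 1 (17.1% of all rows), 21 without replicate 2 (16.9%) and 26 without replicate 3 (19.9%). Each of the 38 kept a negative fold change in all 6 fits that left out a sample. In all 6 fits 20 of the 38, the 11 listed above among them, and Mff remained called at an adjusted p under 0.05.

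**Figure D1:**
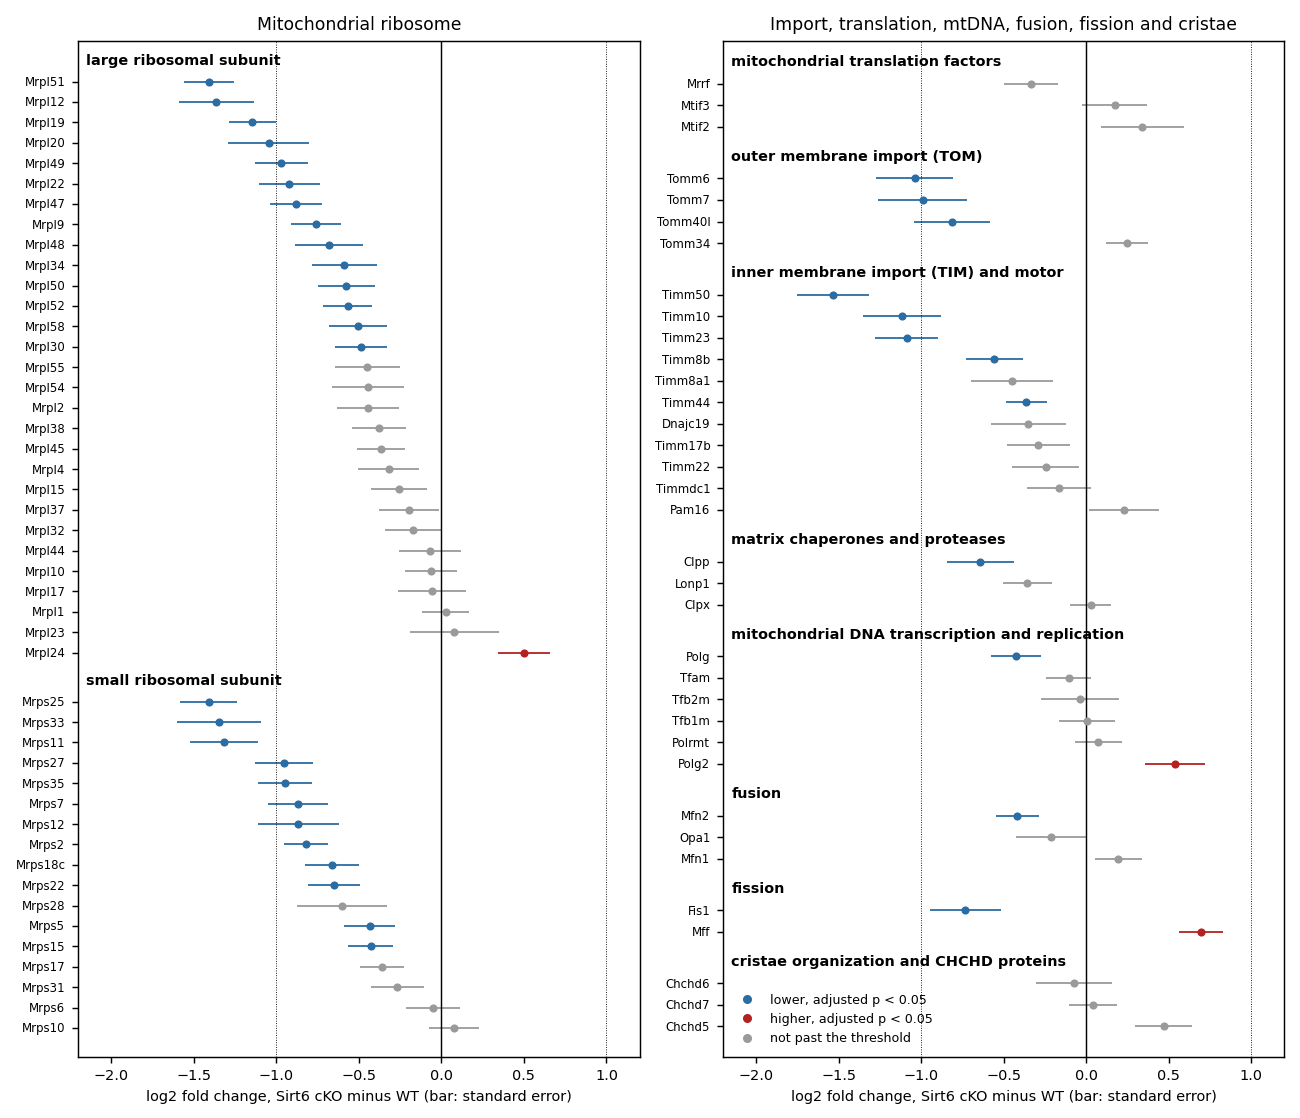
Log2 fold change (Sirt6 cKO minus WT, x axis) of each of the 81 genes, grouped by role, with the mitochondrial ribosome on the left. Points are fitted values, bars their standard errors and colours the call at an adjusted p of 0.05; 38 points are lower, 3 higher and 40 not called, and dotted lines mark a 2-fold change.

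Summed over the 81 genes, normalized counts were 164048, 121086 and 122132 in the WT samples and 99244, 94015 and 100585 in the Sirt6 cKO samples. As a share of all raw counts this was 0.535%, 0.425% and 0.427% in WT and 0.352%, 0.336% and 0.354% in Sirt6 cKO. The groups did not overlap, and WT replicate 1 was the highest of the 6. The ribosomal proteins made up most of these counts. The large subunit summed to 68066, 47818 and 48227 counts in WT and to between 35129 and 38564 in Sirt6 cKO, and the small subunit to 35706, 25782 and 26418 in WT and to between 19059 and 19585 in Sirt6 cKO.

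**Figure D2:**
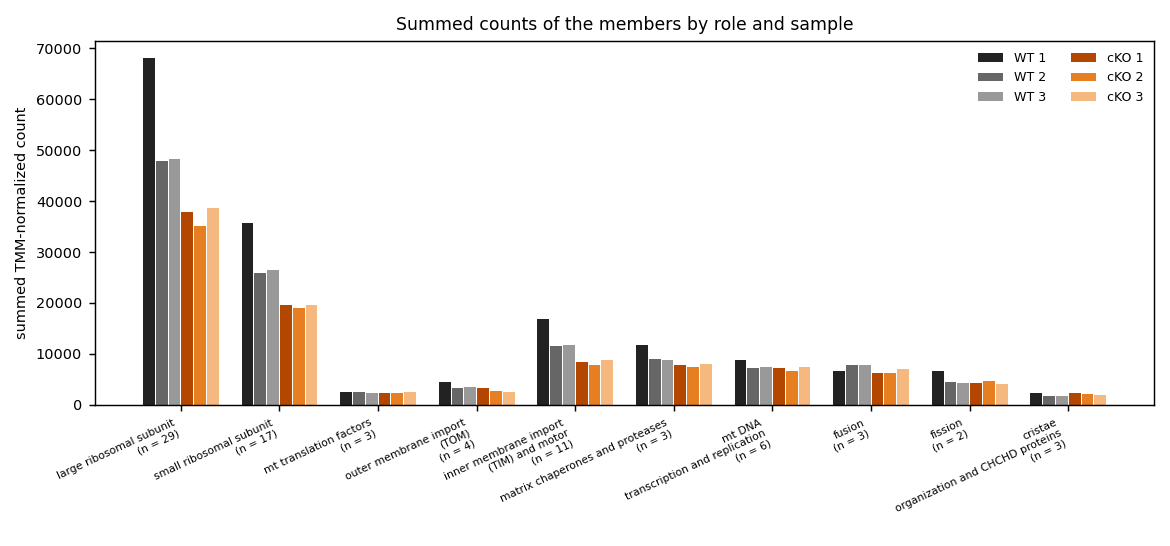
Summed TMM-normalized counts (y axis) of each role group (x axis, n genes each), 1 bar per sample. The sums of both ribosomal subunits and of the TOM, TIM and matrix protease genes are higher in all 3 WT samples than in any Sirt6 cKO sample, with WT replicate 1 the highest. The sums of the translation factors and of the mitochondrial DNA, fusion, fission and Chchd genes overlap.

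The counts by role that follow stand against 24.3% of all rows that fell and 22.5% that rose with all samples, and against 27.8% and 27.5% without WT replicate 1. Of the 46 mitochondrial ribosomal protein genes, 26 fell (56.5%) and 1 rose (2.17%), with a median log2 fold change of −0.54. Without WT replicate 1 these counts were the same and the median was −0.34. In the large subunit 14 of 29 fell (48.3%), 1 rose and the median was −0.45, whereas without that sample 13 fell, 1 rose and the median was −0.27. In the small subunit 12 of 17 fell (70.6%), none rose and the median was −0.66, and without that sample 13 fell and the median was −0.55. Among all 46 genes 32 had every WT sample above every Sirt6 cKO sample, against 30.6% of all rows. In the 35 other genes 12 fell (34.3%) and 2 rose (5.71%), with a median of −0.25, and without WT replicate 1 13 fell and 4 rose, with a median of −0.16.

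In the large subunit, Mrpl51, which has no bacterial counterpart (ENSMUSG00000030335, chromosome 6, bases 125191801 to 125195583 of the mouse build GRCm38), had 3737, 2773 and 3028 normalized counts in WT against 1249, 1112 and 1239 in Sirt6 cKO. The groups were well apart, and the fitted level fell to 37.8% of WT (log2 fold change −1.41 ± 0.15, adjusted p = 0.00018 by edgeR). Mrpl12 (ENSMUSG00000039640, chromosome 11, bases 120484613 to 120489065) encodes the stalk protein of the large subunit. It had 8527, 4823 and 4802 counts in WT against 2431, 2134 and 2495 in Sirt6 cKO. All WT values were higher, WT replicate 1 by far the most, and the log2 fold change of −1.36 ± 0.23 (adjusted p = 0.00182) was −1.03 without that sample (adjusted p = 6.37e-05). Mrpl19 (ENSMUSG00000030045, chromosome 6, bases 81957851 to 81965958), the counterpart of bacterial L19, had 2276, 1741 and 1892 counts in WT against 903, 862 and 908 in Sirt6 cKO, with a spread within Sirt6 cKO of only 25.2 counts (SD, n = 3). Its log2 fold change was −1.14 ± 0.14 (adjusted p = 0.000403 by edgeR). Mrpl20 (ENSMUSG00000029066, chromosome 4, bases 155803536 to 155809776), the counterpart of bacterial L20, had 2850, 1502 and 1707 counts in WT against 1042, 819 and 1072 in Sirt6 cKO. This change passed 2-fold only with WT replicate 1 in the fit, being −1.05 ± 0.24 on the log2 scale with all samples (adjusted p = 0.00812) and −0.72 without it (adjusted p = 0.00258).

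The other 10 large subunit genes that fell had log2 fold changes from −0.97 in Mrpl49 to −0.49 in Mrpl30. Mrpl52, the most abundant of the 46 per length, fell to 67.4% of WT, from 1907 ± 295 to 1286 ± 66.2 counts (SD, n = 3). Its log2 fold change was −0.57 ± 0.15 (adjusted p = 0.0132 by edgeR), and the call was lost without Sirt6 cKO replicate 1 (adjusted p = 0.0532) or 2 (0.0591). Mrpl24, the counterpart of bacterial L24, rose alone of the ribosomal proteins. It had 527, 643 and 581 counts in WT against 741, 790 and 946 in Sirt6 cKO, so that the groups did not overlap, and the log2 fold change was 0.50 ± 0.16 (adjusted p = 0.0279). That call was lost without WT replicate 3 (0.0745) and without Sirt6 cKO replicate 2 (0.0645) or 3 (0.0716), all adjusted p by edgeR. The exons of Mrpl24 share bases with those of Rrnad1 on the other strand. The genes Mrpl37, Mrpl32, Mrpl44, Mrpl10, Mrpl17, Mrpl1 and Mrpl23 of the large subunit had log2 fold changes between −0.20 and 0.08, and between −0.06 and 0.20 without WT replicate 1. Further large subunit genes that did not pass the test were Mrpl55, Mrpl54, Mrpl2, Mrpl38, Mrpl45, Mrpl4 and Mrpl15. These lay between −0.45 and −0.26 on the log2 scale, and between −0.27 and −0.09 without WT replicate 1.

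In the small subunit, Mrps25 (ENSMUSG00000014551, chromosome 6, bases 92169525 to 92184033) had 2571, 1820 and 1755 counts in WT against 806, 757 and 752 in Sirt6 cKO. The Sirt6 cKO samples were close together and far under WT, at a log2 fold change of −1.41 ± 0.17 (adjusted p = 0.000358 by edgeR). Mrps11 (ENSMUSG00000030611, chromosome 7, bases 78783119 to 78792989), the counterpart of bacterial S11, had 2684, 1702 and 1751 counts in WT against 769, 949 and 747 in Sirt6 cKO. The groups were again apart, at −1.32 ± 0.21 on the log2 scale (adjusted p = 0.00123 by edgeR). Mrps33 (ENSMUSG00000029918, chromosome 6, bases 39801804 to 39810988), like Mrps25 a subunit without a bacterial counterpart, had 749, 392 and 489 counts in WT against 246, 217 and 177 in Sirt6 cKO, a log2 fold change of −1.35 ± 0.26 (adjusted p = 0.00315). All 3 stayed past 2-fold without WT replicate 1, at −1.21, −1.07 and −1.05 for Mrps25, Mrps11 and Mrps33.

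The other 9 small subunit genes that fell ranged from −0.95 in Mrps27 to −0.43 in Mrps15 on the log2 scale. The 5 small subunit genes that did not pass the test were Mrps28, Mrps17, Mrps31, Mrps6 and Mrps10. Mrps6, the most abundant small subunit gene per length, had 5442, 3789 and 3849 counts in WT against 4344, 4177 and 4085 in Sirt6 cKO. The Sirt6 cKO samples lay within the WT range, and the log2 fold change of −0.05 ± 0.16 (adjusted p = 0.811 by edgeR) was 0.14 without WT replicate 1 (adjusted p = 0.195), 0.02 under upper-quartile normalization and 0.007 with total counts alone. Mrps10 had 659 ± 94.8 counts in WT and 695 ± 21.3 in Sirt6 cKO (SD, n = 3). The log2 fold change was 0.08 ± 0.15 (adjusted p = 0.7 by edgeR).

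Subunits of this single complex were not at a single level. As normalized CPM per kilobase of exon, the mean WT level of the 46 ribosomal proteins ranged from 1.59 in Mrpl23 to 161 in Mrpl52, a 102-fold range with a median of 29.2. Mrpl12 followed at 138 and Mrps6 stood at 95.5. In Sirt6 cKO these levels per kilobase were 109 for Mrpl52, 53.5 for Mrpl12 and 92.1 for Mrps6, so that Mrps6 lay below Mrpl12 in WT and above it in Sirt6 cKO.

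**Figure D3:**
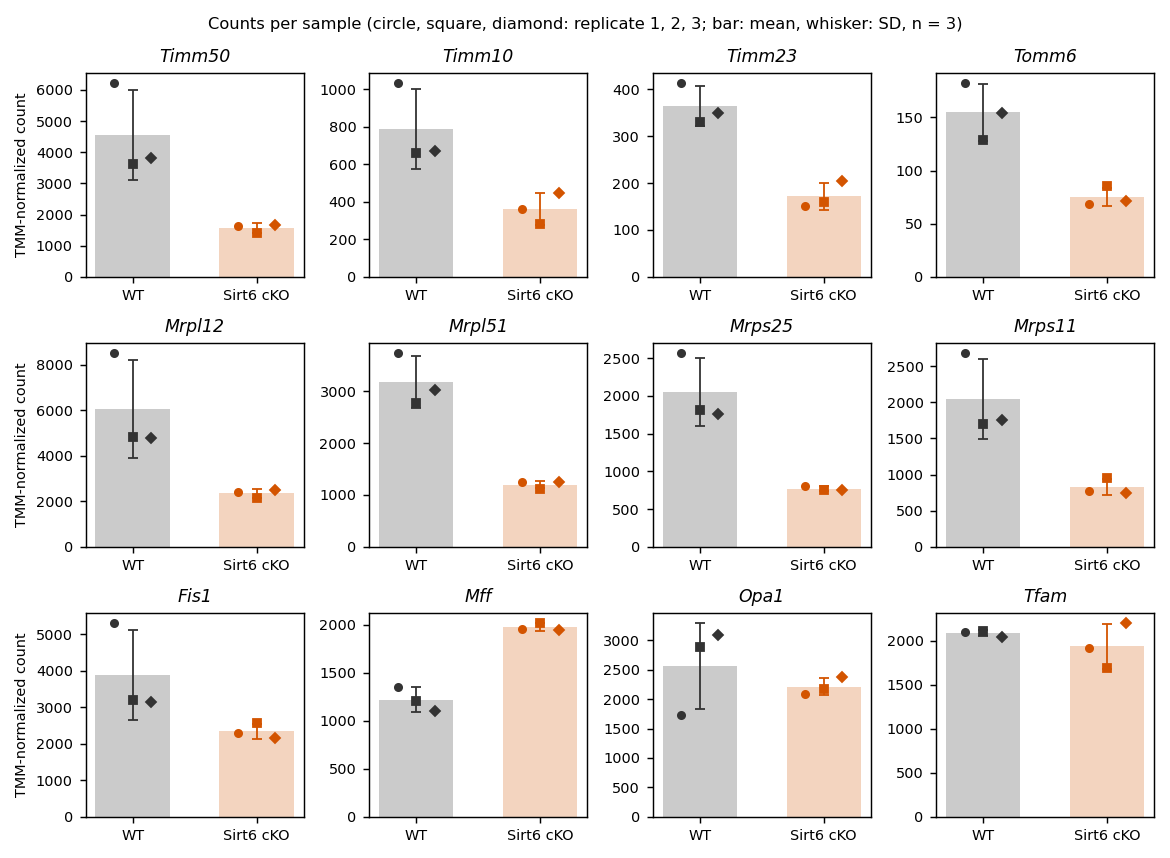
TMM-normalized counts (y axis, from 0) of 12 genes in each WT and Sirt6 cKO sample, with the mean as a bar and the SD as a whisker (n = 3). Timm50, Timm10, Timm23, Tomm6, Mrpl12, Mrpl51, Mrps25, Mrps11 and Fis1 are higher in every WT sample, Mff is higher in every Sirt6 cKO sample, and in Opa1 and Tfam the groups overlap.

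Of the 3 factors that work on the mitochondrial ribosome, none passed the test. Mtif2, an initiation factor, had 391, 805 and 752 counts in WT against 805, 875 and 791 in Sirt6 cKO. Here WT replicate 1 was low, WT replicate 2 lay within the Sirt6 cKO range and WT replicate 3 just below it, and the log2 fold change of 0.34 ± 0.25 (adjusted p = 0.286 by edgeR) was 0.08 without that sample. Mrrf, the ribosome recycling factor, had 1201 ± 191 counts in WT and 953 ± 114 in Sirt6 cKO (SD, n = 3), at −0.33 ± 0.16 on the log2 scale (adjusted p = 0.125 by edgeR) and −0.21 without WT replicate 1. Mtif3, another initiation factor, was at 0.17 ± 0.20 (adjusted p = 0.492), or 0.38 without it (adjusted p = 0.0551).

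Some import genes of each membrane fell, and others did not pass the test. In the outer membrane Tomm6, Tomm7 and Tomm40l fell, 3 of the 4 TOM genes, with a group median of −0.90 (−0.69 without WT replicate 1). Tomm6 (ENSMUSG00000033475, chromosome 17, bases 47686646 to 47688386), a small subunit of the translocase, had 182, 128 and 154 normalized counts in WT against 68.8, 85.0 and 71.7 in Sirt6 cKO. The groups were apart at these low counts, at −1.04 ± 0.23 on the log2 scale (adjusted p = 0.00674 by edgeR) and −0.91 without WT replicate 1. The exons of Tomm6 share bases with Tomm6os and Usp49 on the other strand.

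Tomm7, another small subunit and the most abundant TOM gene per length, had 2195, 1425 and 1483 counts in WT against 1201, 749 and 616 in Sirt6 cKO. The groups did not overlap, and Sirt6 cKO replicate 1 was the nearest to WT. The log2 fold change was −0.99 ± 0.27 (adjusted p = 0.0155 by edgeR), and the call was lost without Sirt6 cKO replicate 2 (0.0632) or 3 (0.0631). Tomm40l, a paralogue of the channel subunit, was at −0.81 ± 0.23 (adjusted p = 0.0187 by edgeR). That call was lost in the same 2 fits, with adjusted p between 0.0591 and 0.0669. Tomm34, a cytosolic cochaperone of import rather than a pore subunit, had 1358, 1203 and 1213 counts in WT against 1474, 1460 and 1546 in Sirt6 cKO. It was higher in all 3 Sirt6 cKO samples at 0.25 ± 0.13 (adjusted p = 0.133), and its adjusted p was 0.0232 without WT replicate 1 (log2 fold change 0.31) and up to 0.293 without another sample.

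In the inner membrane, 5 of the 11 TIM and motor genes fell (Timm50, Timm10, Timm23, Timm8b and Timm44), that is 45.5% against 24.3% of all rows, none rose, against 22.5%, and the median was −0.36. The other 6 did not pass the test. Timm50 (ENSMUSG00000003438, chromosome 7, bases 28305516 to 28312072), the receptor that passes preproteins from the outer membrane to the TIM23 channel, changed the most of all 81 genes in the fit with all samples. It had 6222, 3607 and 3812 counts in WT against 1625, 1402 and 1678 in Sirt6 cKO. Even the lowest WT sample was more than double the highest Sirt6 cKO sample, and the fitted level was 34.5% of WT (log2 fold change −1.54 ± 0.22, adjusted p = 0.000776 by edgeR). Without WT replicate 1 the log2 fold change was −1.24 (adjusted p = 3.49e-05), and Mrpl51 changed more in that fit (−1.27).

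Timm23 (ENSMUSG00000013701, chromosome 14, bases 32180162 to 32201898), the channel itself, had 414, 331 and 349 counts in WT against 150, 160 and 204 in Sirt6 cKO. The groups were apart, at −1.09 ± 0.19 on the log2 scale (adjusted p = 0.00215 by edgeR) and −0.99 without WT replicate 1. Timm10 (ENSMUSG00000027076, chromosome 2, bases 84826997 to 84830213), a small chaperone of the intermembrane space that escorts carrier proteins, had 1035, 661 and 671 counts in WT against 361, 281 and 450 in Sirt6 cKO. It fell by 1.12 ± 0.24 on the log2 scale (adjusted p = 0.00549 by edgeR), or by 0.87 without WT replicate 1.

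Timm8b, a small chaperone of the same space and the most abundant TIM gene per length, had 1529, 1094 and 1079 counts in WT against 917, 830 and 768 in Sirt6 cKO (log2 fold change −0.56 ± 0.17, adjusted p = 0.0269 by edgeR). Timm44, which anchors the matrix Hsp70 to the channel, was at −0.36 ± 0.12 (adjusted p = 0.0375 by edgeR, 0.0612 with the replicate number as a block). Both were borderline: the Timm8b call was lost without any 1 of the 3 Sirt6 cKO samples (adjusted p between 0.0537 and 0.0952), and the Timm44 call in every fit that left out a sample other than WT replicate 1 (0.0768 to 0.165). Under upper-quartile scaling both calls were lost (adjusted p = 0.0515 for Timm8b and 0.0911 for Timm44), and with total counts alone that of Timm44 was (0.0611). Timm8a1, Timm17b, Timm22, Timmdc1, Dnajc19 and Pam16 did not pass the test. The highest of them was Pam16, a J-like protein of the import motor, with 175 ± 31.8 counts in WT and 205 ± 25 in Sirt6 cKO (SD, n = 3) and a log2 fold change of 0.23 ± 0.21 (adjusted p = 0.395 by edgeR). Timm22, the channel gene of the carrier route, was at −0.25 ± 0.20 (adjusted p = 0.344 by edgeR), and its sign rested on WT replicate 1, without which it was 0.02 (adjusted p = 0.876).

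Among the matrix proteases, Clpp, the proteolytic subunit of the ClpXP protease, had 2257, 1394 and 1376 counts in WT against 1134, 1026 and 1056 in Sirt6 cKO. The groups did not overlap, and the log2 fold change of −0.64 ± 0.20 (adjusted p = 0.029 by edgeR) was −0.37 without WT replicate 1. The call was lost without any 1 of the Sirt6 cKO samples (adjusted p between 0.0667 and 0.0931). Clpx, its unfoldase partner, had 1200 ± 52.7 counts in WT and 1223 ± 55.1 in Sirt6 cKO (SD, n = 3), at 0.03 ± 0.12 on the log2 scale (adjusted p = 0.871 by edgeR). Lonp1, the other main matrix protease and the most abundant of the 35 genes outside the ribosome per length (82.3 CPM per kilobase in WT), had 8396, 6376 and 6220 counts in WT against 5337, 5207 and 5848 in Sirt6 cKO. Its WT values were all higher, but the change of −0.36 ± 0.15 did not pass the test (adjusted p = 0.0792), and it was −0.21 without WT replicate 1 (adjusted p = 0.0803).

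The genes that copy and transcribe mitochondrial DNA had a median of −0.015, with Polg lower, Polg2 higher and the other 4 not past the test. Tfam, which packages the mitochondrial genome and starts its transcription, had 2102, 2111 and 2043 counts in WT against 1920, 1685 and 2204 in Sirt6 cKO. The groups overlapped, at −0.11 ± 0.14 on the log2 scale (adjusted p = 0.55 by edgeR). Polrmt, the mitochondrial RNA polymerase, was at 0.07 ± 0.15 (adjusted p = 0.696) and at 0.21 without WT replicate 1 (adjusted p = 0.0728), Tfb1m at 0.006 and Tfb2m at −0.04.

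The 2 subunits of the mitochondrial DNA polymerase were called in opposite directions. Polg, the catalytic subunit, had 3721, 2715 and 2824 counts in WT against 2430, 2226 and 2235 in Sirt6 cKO (log2 fold change −0.43 ± 0.15, adjusted p = 0.0474 by edgeR, and −0.27 without WT replicate 1). Polg2, the accessory subunit, was far less abundant and had 187, 228 and 226 counts in WT against 336, 334 and 263 in Sirt6 cKO (0.54 ± 0.18, adjusted p = 0.0372). Neither gene overlapped between the groups, but both calls were borderline. The Polg call was lost in all 5 fits that left out a sample other than WT replicate 1 (adjusted p 0.0503 to 0.137), and the Polg2 call without WT replicate 2 or 3 or Sirt6 cKO replicate 1 or 2 (0.0622 to 0.136). With all samples in, the Polg call was also lost under RLE (0.051), total-count (0.0513) and upper-quartile scaling (0.0931).

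Of the fusion genes, Mfn2 (ENSMUSG00000029020, chromosome 4, bases 147873599 to 147904704) fell, and Opa1 and Mfn1 did not pass the test. Mfn2 had 3416, 3060 and 2893 counts in WT against 2317, 2178 and 2524 in Sirt6 cKO, to 74.9% of WT. The groups did not overlap (log2 fold change −0.42 ± 0.13, adjusted p = 0.0287 by edgeR), and the call was lost without WT replicate 2 or 3 or without Sirt6 cKO replicate 1 or 2 (adjusted p 0.0556 to 0.113), and under upper-quartile scaling (0.055). Mfn1 (ENSMUSG00000027668, chromosome 3, bases 32529465 to 32579239) had 1470, 1879 and 1800 counts in WT against 1871, 1877 and 2144 in Sirt6 cKO, and its log2 fold change was 0.19 ± 0.14 (adjusted p = 0.293), or 0.09 without WT replicate 1.

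For Opa1 (ENSMUSG00000038084, chromosome 16, bases 29579334 to 29654884), WT replicate 1 decided the call. Opa1 had 1729, 2881 and 3085 counts in WT against 2087, 2178 and 2378 in Sirt6 cKO, so that WT replicate 1 lay below, and the other WT samples above, every Sirt6 cKO sample. With all samples the log2 fold change was −0.21 ± 0.21 (adjusted p = 0.43 by edgeR), and without WT replicate 1 it was −0.43 (adjusted p = 0.00541). Over the 6 fits that left out a sample the adjusted p of Opa1 ranged up to 0.886. Unlike most of the 81 genes, Opa1 was thus lowest, not highest, in that WT library.

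The fission receptors were called in opposite directions. Fis1 (ENSMUSG00000019054, chromosome 5, bases 136953275 to 136966234) had 5318, 3201 and 3142 counts in WT against 2291, 2570 and 2158 in Sirt6 cKO. All WT samples were higher, and the log2 fold change of −0.73 ± 0.21 (adjusted p = 0.0212 by edgeR) was −0.44 without WT replicate 1. This call was lost without Sirt6 cKO replicate 1 (0.0675) or 3 (0.0861). Mff (ENSMUSG00000026150, chromosome 1, bases 82724890 to 82752394) rose and had 1357, 1202 and 1102 counts in WT against 1962, 2022 and 1943 in Sirt6 cKO. The Sirt6 cKO samples lay close together and above all of WT, at 162% of the WT level (log2 fold change 0.70 ± 0.13, adjusted p = 0.00305), and Mff was called in all 6 fits that left out a sample. The summed level of the pair was 6674, 4404 and 4244 counts in WT against 4253, 4592 and 4101 in Sirt6 cKO, and the groups overlapped. Per kilobase, Fis1 stood at 79.0 CPM in WT against 10.4 for Mff, and at 47.6 against 16.8 in Sirt6 cKO.

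The 3 Chchd genes did not pass the test. Chchd5, a small protein of the intermembrane space, had 752, 604 and 544 counts in WT against 1004, 844 and 782 in Sirt6 cKO. The Sirt6 cKO samples were all higher, at 0.47 ± 0.17 on the log2 scale (adjusted p = 0.051 by edgeR). The adjusted p was 0.0251 with the replicate number as a block, 0.0263 to 0.0482 under the other scalings, 0.0318 by DESeq2, 0.0457 by limma-voom and 0.00664 without WT replicate 1, and reached 0.197 when another sample was left out. Chchd6, a subunit of the complex that shapes cristae, had 881, 487 and 515 counts in WT against 609, 590 and 586 in Sirt6 cKO. WT replicate 1 was high and the other WT samples low, and the log2 fold change of −0.08 ± 0.23 (adjusted p = 0.808) turned to 0.25 without that sample (adjusted p = 0.105) and to 0.002 under upper-quartile normalization. Chchd7 was at 0.04 ± 0.15 (adjusted p = 0.841).

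**Figure D4:**
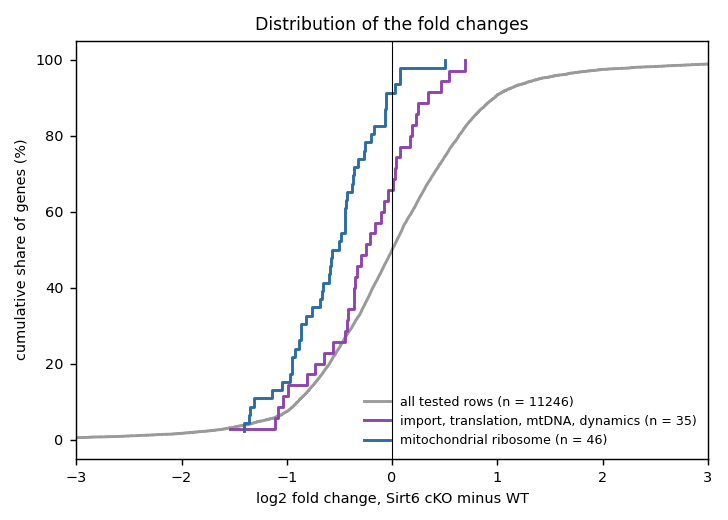
Cumulative share of genes (y axis, %) against log2 fold change (x axis, Sirt6 cKO minus WT; the axis ends at 3 in each direction) for all 11246 tested rows, the 46 mitochondrial ribosomal proteins and the 35 other genes. The ribosomal curve lies left of the curve of all rows (medians −0.54 and 0.002), with the 35 other genes between them (median −0.25).

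The genes are shorter than most, with a median exon length of 2255 bases against 3943 over the tested rows where labels and counts line up. Among such rows of up to 2511 bases, the shortest of 4 near-equal classes, the median log2 fold change was −0.21, and that of the 42 genes in it was −0.56. Without WT replicate 1 these medians were −0.09 and −0.36. The second class (to 3943 bases) held 18 of the genes, with a median of −0.37 against −0.05 over its rows, or −0.22 against −0.009 without WT replicate 1. The 14 genes of the third class (to 5902 bases) had a median of −0.08 against 0.007, which turned to 0.03 against −0.005 without that sample. The 7 of the longest class had a median of −0.43 against 0.21, or −0.29 against 0.10 without it. With all samples, 23 of the 42 genes, 8 of the 18, 3 of the 14 and 4 of the 7 fell, from the shortest class to the longest. Of all rows in these classes 32.4%, 28.8%, 25.7% and 16.2% fell. The median log2 difference of WT replicate 1 from the mean of the other WT samples was 0.35 over the rows of the shortest class and −0.29 over those of the longest. Across the 81 genes, which share libraries, the log2 fold change correlated with exon length at a Spearman's rho of 0.27 and with the WT level per kilobase at −0.42. The part of exon length in the result was not tested.

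Exons of 16 of the 81 genes share bases with a row on the other strand and none with a row on the same strand. Of the 16, 10 fell (Mrpl12, Mrpl19, Mrpl47, Mrpl48, Mrpl49, Mrpl58, Mrps25, Mrps7, Tomm6 and Timm8b) and Mrpl24 rose. Among the 81 genes 46.9% fell and 3.7% rose, and among all rows 24.3% fell and 22.5% rose. The study's methods describe strand-specific libraries, and the labels name a stranded kit among others. Whether the count used the strand is not given in the sources used here, so reads of these genes and of their partners may not be told apart.

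**Figure D5:**
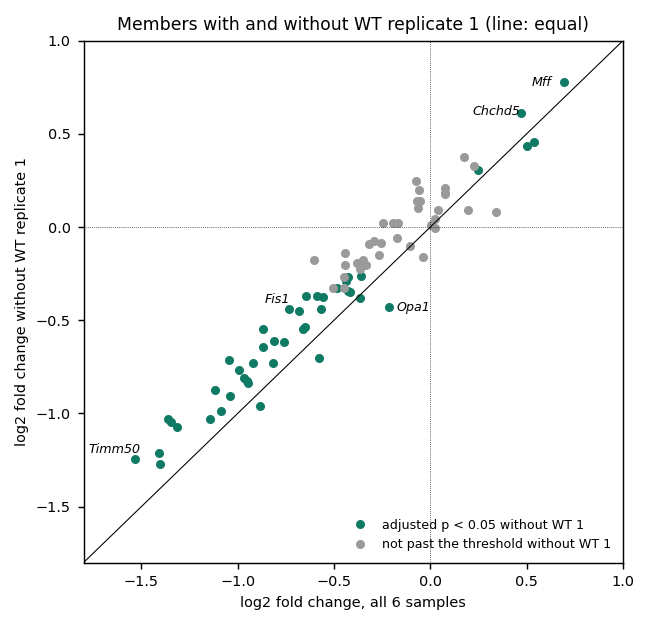
Log2 fold change of the 81 genes with all 6 samples (x axis) and without WT replicate 1 (y axis), coloured by the call in the fit without it. Most points lie above the line of equal values, 37 of the 38 lower genes are still called, and Opa1 lies below the line with a value of −0.43.

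Other genes of the same pathways were also tested. Of 107 tested genes on 8 pathway lists, with the 81 left out, 29 fell (27.1%, against 24.3% of all rows) and 15 rose (14.0%, against 22.5%), and the median was −0.21. Past 2-fold 5 fell (4.67%, against 7.15% of all rows) and 1 rose (0.935%, against 8.72%). Without WT replicate 1, 33 fell (27.8% of all rows) and 20 rose (27.5% of all rows), and the median was −0.10. Among 12 import, processing and assembly partners, 7 fell and 1 rose (median −0.49), as they did without WT replicate 1 (median −0.40). Mitochondrial RNA processing and ribosome assembly had 6 lower and 5 higher of 35 (median −0.17, and 8 lower and 7 higher with a median of 0.02 without WT replicate 1), the mitochondrial aminoacyl-tRNA synthetases 2 lower and 3 higher of 13 (median −0.14, and 3 lower and 2 higher without it), and proteases and prohibitins 2 lower and 1 higher of 8 (median −0.16). Mitochondrial DNA maintenance had 6 lower and 3 higher of 16 (median −0.32, and 6 lower and 4 higher with a median of −0.17 without that sample), dynamics and transport 3 lower and 2 higher of 10 (median 0.15, and 3 lower and 4 higher with a median of 0.09 without it), and biogenesis regulators 3 lower and 0 higher of 9 (median −0.14, and 4 lower with a median of −0.25 without it). The unfolded protein response list had 6 tested genes, of which Clpp and Lonp1 are among the 81, with 1 lower and a median of −0.31 (1 lower, 1 higher and a median of −0.15 without WT replicate 1).

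Of these lists, 6 genes passed 2-fold. Without WT replicate 1, 4 of them still did (Dna2, Inf2, C1qbp and Noa1), and Mrm1, an RNA methyltransferase of the mitochondrial ribosome, joined them at 1.11 on the log2 scale (0.83 with all samples). Dna2, a helicase and nuclease of nuclear and mitochondrial DNA, had 1084, 1014 and 1167 counts in WT against 238, 208 and 135 in Sirt6 cKO (log2 fold change −2.49 ± 0.22, adjusted p = 5.83e-05 by edgeR). Inf2, a formin that builds actin at sites of mitochondrial fission, had 10810, 9464 and 9435 counts in WT against 2639, 2836 and 2198 in Sirt6 cKO (−1.95 ± 0.15, adjusted p = 2.49e-05). In both, the WT samples were close together and far above Sirt6 cKO. C1qbp, a matrix protein needed for mitochondrial translation, was at −1.43 ± 0.21 (adjusted p = 0.000812), Noa1, a GTPase of ribosome assembly, at −1.23 ± 0.17 (adjusted p = 0.000624) and Stoml2, a scaffold of the inner membrane, at −1.03 ± 0.20 (adjusted p = 0.00331), the last being −0.79 without WT replicate 1. The nucleotide carrier gene Slc25a36 rose, with 551, 1531 and 1575 counts in WT against 2825, 2920 and 3126 in Sirt6 cKO (1.28 ± 0.34, adjusted p = 0.0138 by edgeR), and WT replicate 1 was the lowest sample by far, without which the value was 0.93.

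Marker genes also differed between the groups, some lower and some higher in Sirt6 cKO. Of 15 listed proliferation genes 9 were tested, and all 9 fell past 2-fold (median −2.65; 7.15% of all rows fell so far), their summed counts being 75920 to 94304 in WT and 9802 to 11650 in Sirt6 cKO. Of 18 listed chondrocyte markers 5 were tested. Sox9, Ucma, Col11a1 and Comp rose, where 22.5% of all rows rose, and Col9a3 was at −0.53 and did not pass the test. Their sums were 5722 to 6238 in WT and 11268 to 14117 in Sirt6 cKO. The defining markers Col2a1 and Acan were not analysed here. Of 10 listed fibroblast genes 8 were tested and 5 rose (Col1a1, Col1a2, Dcn, Lum and Pdgfra), against 22.5% of all rows, and none fell. Pdpn (−0.36), Has1 (−0.26) and Thy1 (0.09) did not pass the test, and Lum had 0, 4 and 4 raw counts in WT. The sums were 321621 to 329647 in WT and 1038946 to 1198100 in Sirt6 cKO, most of them from Col1a1 and Col1a2. Runx2 was the 1 osteoblast gene tested (1358 to 2043 counts in WT, 2004 to 2271 in Sirt6 cKO), Cd68 the 1 macrophage gene (43.6 to 48.9 and 5.9 to 49.6) and Des the 1 skeletal muscle gene (102 to 116 and 197 to 221), which rose. No endothelial or adipocyte gene of the lists was analysed here. The part of these markers in the lower level of the 81 genes was not tested.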

How the data were processed

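RNA-seq was carried out on chondrocytes of 3 WT and 3 Sirt6 cKO samples, grouped by the genotype in the labels. The authors deposited raw read counts per Ensembl gene, not normalized, with the exon positions and summed exon length in bases, in the layout of featureCounts. The counter, its strand setting and the rule that chose the 11659 genes are not given in the sources used here. The submitters' processing notes name cutadapt, HISAT2 2.0.5, StringTie and the build hg19, whereas the deposited positions match mouse GRCm38. Library kit and sequencer differ between the study's methods and the labels. Every column of counts was used.

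The table pairs no identifier with a symbol, so rows were named by position: at least 0.5 of the joint span had to be shared with a RefSeq gene of GRCm38.p6. This named 10606 rows (91.0%, against 9.0% with the annotation moved by 1 Mb), and 29 further rows whose symbol was already given were left unnamed. Counts and labels are on the same row only in parts of the table, so genes were taken from Ensembl numbers 1 to 20900 and 25770 to 48200 (6621 rows). In these, counts followed exon length with a Spearman's rho of 0.276 on the same row and between −0.012 and 0.031 at offsets of up to 5 rows. In rows outside these numbers rho was 0.359 on the same row and 0.354 to 0.463 at the offsets. For the 81 genes alone it was 0.247 on the same row, −0.313 at the next row and −0.022 to 0.15 at the other offsets. The same row thus does not stand out for so few genes, and the check rests on the 6621 rows. A further 32 matching rows outside these numbers, Dnm1l, Hspa9, Hspe1, Tufm, Tomm20 and Twnk among them, and Hspd1, Immt and Tomm40 were not analysed here.

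The whole table was fitted in edgeR 4.0.16 (R 4.3.3) with TMM factors, filterByExpr and the quasi-likelihood test (glmQLFit, glmQLFTest) for genotype alone, with Benjamini-Hochberg correction over 11246 rows. A gene was called at an adjusted p under 0.05, and past 2-fold where the fold was also over 2 or under 0.5, the threshold the study gives. The procedure was run on counts simulated from the edgeR model itself. It called 70 of 99 genes changed 2-fold, 97 of 98 changed 4-fold and 16 unchanged genes. The simulation held no outlying sample, so it cannot show how WT replicate 1 affects the fit. Levels between genes are TMM-normalized CPM per kilobase of exon. Depth was 25726958 to 30156935 counts, and the lowest raw count of any of the 81 genes was 66. Lists were described by counts and medians with no set test. The genes, lists and tests were chosen with earlier results of these data known. Named are the genes past 2-fold, the highest and lowest fold change and the highest level per length in each role, a fixed list of known genes, and list genes past 2-fold. Genes outside this rule, such as Tomm40l, Timm44, Tfb1m and Mrm1, were named after their values were seen, to complete a count.

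Deviations from the group means were shared by samples of the same number (r across genes 0.243, 0.100 and 0.127 for numbers 1, 2 and 3), and a fit with this number as a block was run beside the unblocked one. No source says that a number marks a shared animal, litter or batch. Alternatives were DESeq2 1.42.0, limma-voom (limma 3.58.1), edgeR's likelihood ratio test, RLE, upper-quartile and total-count scaling, other filters, the replicate block, leaving out each sample, glmTreat, stricter naming and an adjusted p under 0.01. Promoter motifs were not searched, since no sequences were used here.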

Additional observations from a re-analysis of the deposited data

How the results depend on the processing

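The median of the 81 genes stayed negative under every alternative, from −0.50 to −0.27 when 1 sample was left out, and the counts of lower genes past an adjusted p of 0.05 under edgeR's RLE, upper-quartile and total-count scaling shared 37, 29 and 35 genes with the 38. The calls lost were Polg under RLE, Polg, Timm44 and Mrpl58 with total counts, and these with Mrpl30, Mrpl34, Mrps5, Mrps15, Timm8b and Mfn2 under upper-quartile scaling (adjusted p 0.0515 to 0.0931). Past 2-fold, 9 genes fell under total-count and under upper-quartile scaling, against 11 with TMM. Mrpl20 and Tomm6 fell short there, with log2 fold changes between −0.98 and −0.96. DESeq2 and limma-voom shared all 38 calls. With the replicate block 37 genes fell, all among the 38, and 4 rose, the call of Timm44 being lost and that of Chchd5 gained, with no other call among the 81 changed. Leaving out 1 sample gave 21 to 39 lower genes, 1 to 5 higher and 7 to 16 lower past 2-fold. At an adjusted p under 0.01, 20 genes were lower and 1 higher, against 1628 lower (14.5%) and 1478 higher (13.1%) of all rows. Tested against a fold of 1.2 with glmTreat, 26 genes were lower (18.2% of all rows) and 1 higher (17.0%). With members taken from every row of the table, whether or not labels and counts line up, 47 of 112 were lower (24.3% of all rows), 15 of them past 2-fold (7.15%), and 11 higher (22.5%), 1 of them past 2-fold (8.72%). Fitted on only the rows where labels and counts line up, 1736 of 6615 tested rows fell and 1623 rose, 499 and 590 of them past 2-fold. In that fit 50.8% of the rows were called, against 46.8% of the 11246 rows in the main fit. Among the 35 genes that the naming rule selects, 507 of the alternative values kept direction and call, 33 lost the call, 12 gained it and 8 changed sign, all 8 in genes that did not pass the test. These were Chchd6 (0.002 under upper-quartile scaling, 0.248 without WT replicate 1), Mrps6 (0.024 under upper-quartile scaling, 0.007 with total counts, 0.138 without WT replicate 1), Clpx (−0.006 without WT replicate 1 and without Sirt6 cKO replicate 1) and Mrps10 (−0.012 without WT replicate 2). With 1 sample left out, their values ranged from −0.218 to 0.248, −0.134 to 0.138, −0.006 to 0.074 and −0.012 to 0.184. Over all 81 genes, 15 changed sign under at least 1 alternative, none of them called with all samples. Beside those 4 they were Chchd7, Mrpl1, Mrpl10, Mrpl17, Mrpl23, Mrpl37, Mrpl44, Tfb1m, Tfb2m, Timm22 and Timmdc1. The cause was not tested. Upper-quartile scaling moved the median of all rows to 0.079, and the median of the 81 genes relative to it was −0.43, as with TMM. The lowest raw count was under 100 in 3 of the 81 genes, and the part of depth in the calls was not tested.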
